A study of Schmidtea mediterranea with 15 samples.

Results

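Transcript levels in whole planarians 72 h after gamma irradiation were compared with those in unirradiated worms, to see which transcripts had gained or lost ground by the third day after the exposure. The features compared were the 20044 transcript models with at least 1 RPKM (reads scaled to model length and library size) in at least 3 of the 6 libraries concerned, out of 26671 models in the deposited table (75.2%). Schmidtea mediterranea is a freshwater flatworm. The worms, all of its clonal CIW4 line, were 2 to 3 mm long and had been without food for at least 1 week. The 72 h group received 6000 rad at 85 rad per minute, and the 0 h group received none. Each group had 3 libraries of polyA RNA from whole worms, and 9 more libraries from 24, 48 and 96 h after the same dose are used here for context. Nothing in the labels says that replicates are separate cultures, or how many worms were pooled, and the p-values therefore cover no more than the spread among these libraries, part of which may be technical. The labels name no unirradiated group at 72 h, and dose, elapsed time and any batch that goes with them cannot be told apart.

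Adult planarians keep a pool of dividing stem cells, the neoblasts, which supply new cells to every tissue. Ionising radiation at high doses kills these cells, and a worm without them no longer replaces its short-lived progeny and differentiated cells, so transcripts of stem cells and of their descendants are known to disappear in succession. The deposited table gives model IDs without gene names, and no table pairing them with names was used here. No cell type, pathway or gene function is therefore attached to any model, the labelled tissue could not be checked against markers, and groups of models are described by size of change, level and length. In whole worms, fewer cells of a type and less RNA per cell cannot be told apart.

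Each 72 h library held 16714624 to 30682887 recovered reads and each 0 h library 9749391 to 13801926, so each irradiated library was deeper than each control. The replicates of both groups differed from each other by more than sampling noise, with a chi-square per model of 3.60 to 6.08 between pairs of 72 h libraries and 1.46 to 1.81 between pairs of 0 h libraries. Where replicates differ in this way the measure grows with depth, so it is not compared between the groups. The median SD of log2(RPKM + 0.5) over 3 replicates was 0.10 in each group. The 72 h libraries had 19247 to 19560 models at 1 RPKM or more and the 0 h libraries 19921 to 19929, a mean difference of -548 models with no overlap (exact two-sided permutation test, p = 0.1, the smallest that 3 against 3 libraries can give). The 100 most abundant models of each library held 33.3% ± 0.239 of its reads in the 72 h group and 32.0% ± 0.313 in the 0 h group (SD, n = 3 each, exact permutation p = 0.1).

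Falls at 72 h were much larger than rises. A total of 627 models were at least 2-fold lower than in unirradiated worms, 172 of these at least 4-fold and 66 at least 8-fold, while 15 were at least 2-fold higher. The largest called changes were -8.66 and 1.39 on the log2(RPKM + 0.5) scale. Without regard to size the directions were nearly balanced, with 4530 models lower (22.6%) and 4643 higher (23.2%) at an adjusted p below 0.05 (limma, Benjamini-Hochberg adjustment over the 21231 models tested in the whole table). Over all tested models the corresponding shares were 43.7% called, 21.5% lower and 22.1% higher. The balance depended on the scaling, with 3993 members lower and 5847 higher after quantile normalization. After scaling by recovered read totals, 4869 were lower and 3987 higher. Falls of at least 2-fold, 4-fold and 8-fold made up 2.96%, 0.81% and 0.311% of all tested models, and 2-fold rises 0.0989%. Of the 9173 calls among the members, 76.6% were changes under 1.5-fold. The median change over the members was 0.02, with quartiles of -0.24 and 0.21.

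The 627 models with a called 2-fold fall had their 3 values at 72 h below their 3 values at 0 h, and 13 of the 15 with a 2-fold rise had them above. They were chosen by the size and call of the change in these same values, so this describes them and supports nothing. Over the members, 5008 models lay wholly lower and 5236 wholly higher at 72 h, against 24% and 25.2% of all tested models. The rule for members admits some models through 1 group alone. In 349 models all 3 values at 0 h and none at 72 h reached 1 RPKM, and such models had to differ, so the 240 of them among the 627 falls are no evidence in themselves. In 57 models this was so the other way round, with all 3 values at 72 h and none at 0 h reaching 1 RPKM. The other 387 falls and 10 of the 15 rises were not of these kinds. That does not free all of them from the rule. Of the 627 falls, 266 averaged under 1 RPKM at 72 h, and of the 15 rises, 10 averaged under 1 RPKM at 0 h.

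**Figure D1:**
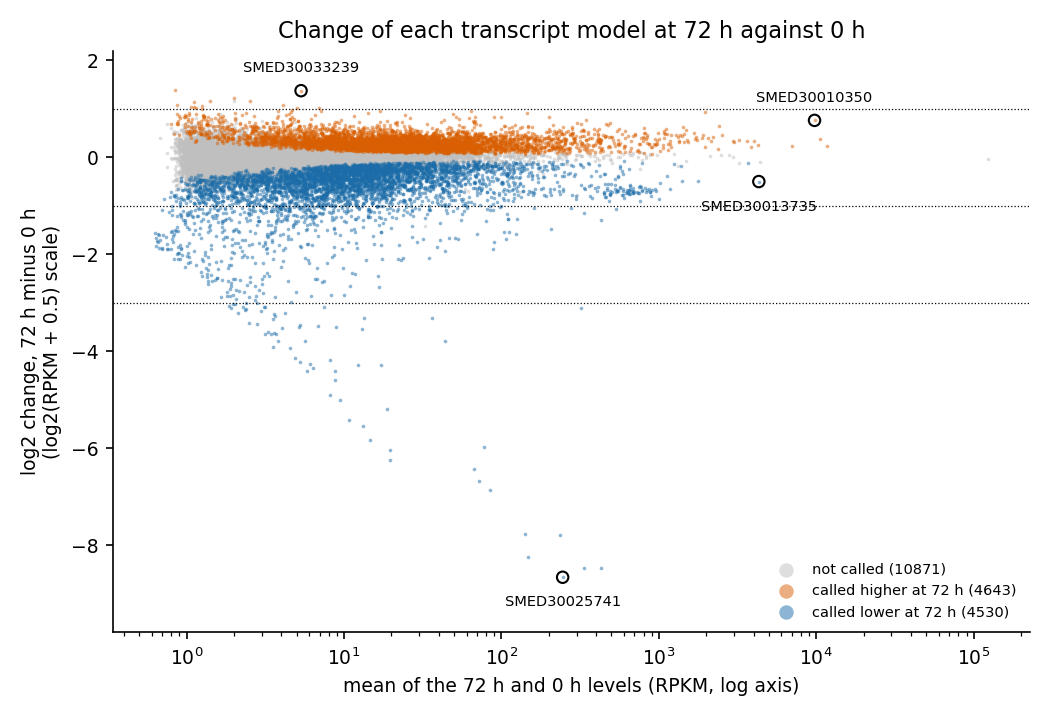
Each point is 1 of the 20044 transcript models, with the mean of its 72 h and 0 h levels in RPKM on a log axis and its log2 change (72 h minus 0 h) on the vertical axis. Dotted lines mark 2-fold changes and an 8-fold fall, and circles mark the 4 models described individually. Called falls reach -8.66 and called rises 1.39, and the lower edge of the cloud at low levels is set by the pseudocount of 0.5 RPKM.

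How much transcript was left at 72 h differed widely among the falling models. In the 66 models that fell 8-fold or more, the median level was 0.223 RPKM at 72 h and 11.8 RPKM at 0 h. Their mean RPKM at 72 h was a median of 1.31% of that at 0 h, and 26 of them retained under 1%. The 106 models with falls of 4 to 8-fold stood at medians of 0.313 RPKM at 72 h and 4.16 RPKM at 0 h, and retained a median of 7.78%. The 455 models with falls of 2 to 4-fold had medians of 2.35 RPKM at 72 h and 6.17 RPKM at 0 h, with a median of 35.6% retained (quartiles 26.2% and 42.7%). Because the scale adds 0.5 RPKM, 30 models of the 2 to 4-fold class in fact retained under 10%. Of the 627, 7 models had 0 reads in all 3 libraries at 72 h, and a count of 0 allows up to 3 reads. The count of 66 depends on the pseudocount, being 156 when 0.1 RPKM was added and 38 when 1 RPKM was added, and limma-voom on recovered reads gave 172.

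Each model named here and below was chosen by its values at 72 h and 0 h. That choice favours large changes, so the estimates, intervals and p-values of this contrast describe the models and are no independent test. Contrasts of 72 h with a neighbouring time reuse the same 72 h values. Among the models meeting the conditions for naming, the largest fall was that of SMED30025741, a model of 592 bases. Its level at 72 h was 0.689, 0.830 and 0.613 RPKM in the 3 libraries, against 510.1, 459.5 and 497 RPKM at 0 h. The irradiated libraries thus lay far below the controls with no overlap, on 8, 8 and 11 reads in the 72 h libraries and 2699 to 4183 reads in the 0 h libraries. The mean was 0.710 ± 0.110 RPKM at 72 h and 489 ± 26.2 RPKM at 0 h (SD, n = 3 each), a 688-fold difference in mean RPKM and a log2 change of -8.66 (SE 0.16, 95% interval -9.01 to -8.31, limma adjusted p = 4.85e-15). This model had stood at 203 ± 8.29 RPKM at 24 h and 11.8 ± 1.32 RPKM at 48 h, and its 96 h level was 0.747 ± 0.443 RPKM. It was lower at 72 h than at 48 h, by a log2 change of -3.34 with an SE of 0.16 (limma, adjusted p = 6.58e-09), whereas the difference of 96 h from 72 h did not pass the test, at -0.01 with an SE of 0.16 (limma, adjusted p = 0.986).

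Among called models without overlap, the largest loss in RPKM was that of a far more abundant model that fell by less than 2-fold. SMED30013735, of 1638 bases and rank 6 by level at 0 h, had 3464, 3705 and 3563 RPKM at 72 h, against 5041, 4968 and 5149.9 RPKM at 0 h. Here too the groups did not overlap, and each value rests on at least 80740 reads. The mean was 3577 ± 121 RPKM at 72 h and 5053 ± 91.3 RPKM at 0 h (SD, n = 3 each), which is 1.41-fold lower, with a log2 change of -0.50 (SE 0.04, 95% interval -0.58 to -0.41, limma adjusted p = 8.79e-08). After 24 h it had averaged 3932 ± 138 RPKM, after 48 h 3623 ± 60.3 RPKM, and after 96 h it averaged 3324 ± 37.2 RPKM. From 48 to 72 h no change was called (log2 change -0.02, limma adjusted p = 0.909).

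On the rising side, the largest change of an eligible model was that of SMED30033239, a short model of 382 bases. It had 7.20, 8.04 and 8.37 RPKM at 72 h, against 3.59, 2.90 and 1.90 RPKM at 0 h. Every 72 h value exceeded every 0 h value, on 50 to 97 reads in each 72 h library and 9 to 19 reads in each 0 h library. The means were 7.87 ± 0.601 RPKM at 72 h and 2.80 ± 0.852 RPKM at 0 h (SD, n = 3 each), with a log2 change of 1.38 (SE 0.19, 95% interval 0.98 to 1.78, limma adjusted p = 2.19e-05). Its 24 h level was 9.48 ± 2.12 RPKM, its 48 h level 10.6 ± 1.76 RPKM and its 96 h level 5.45 ± 0.935 RPKM, and neither the contrast of 72 h with 48 h (limma adjusted p = 0.388) nor that of 96 h with 72 h (limma adjusted p = 0.15) was called.

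Among called models without overlap, the largest gain in RPKM was that of SMED30010350, of 441 bases and rank 4 by level at 0 h. Its values were 10941, 13916 and 12003 RPKM at 72 h, against 7427, 6935 and 7249.6 RPKM at 0 h. All 3 irradiated libraries were above the controls, though they also spread more widely, at 12287 ± 1508 RPKM at 72 h and 7204 ± 249 RPKM at 0 h (SD, n = 3 each). The log2 change was 0.76 (SE 0.09, 95% interval 0.58 to 0.95, limma adjusted p = 3.24e-06). After quantile normalization, which gives models of the same rank the same value in every library, it was 0.14 (limma adjusted p = 0.0464). The model averaged 12372 ± 646 RPKM after 24 h, 11396 ± 750 RPKM after 48 h and 9794 ± 762 RPKM after 96 h, and was lower at 96 h than at 72 h, by a log2 change of -0.32 with an SE of 0.09 (limma, adjusted p = 0.0433).

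**Figure D2:**
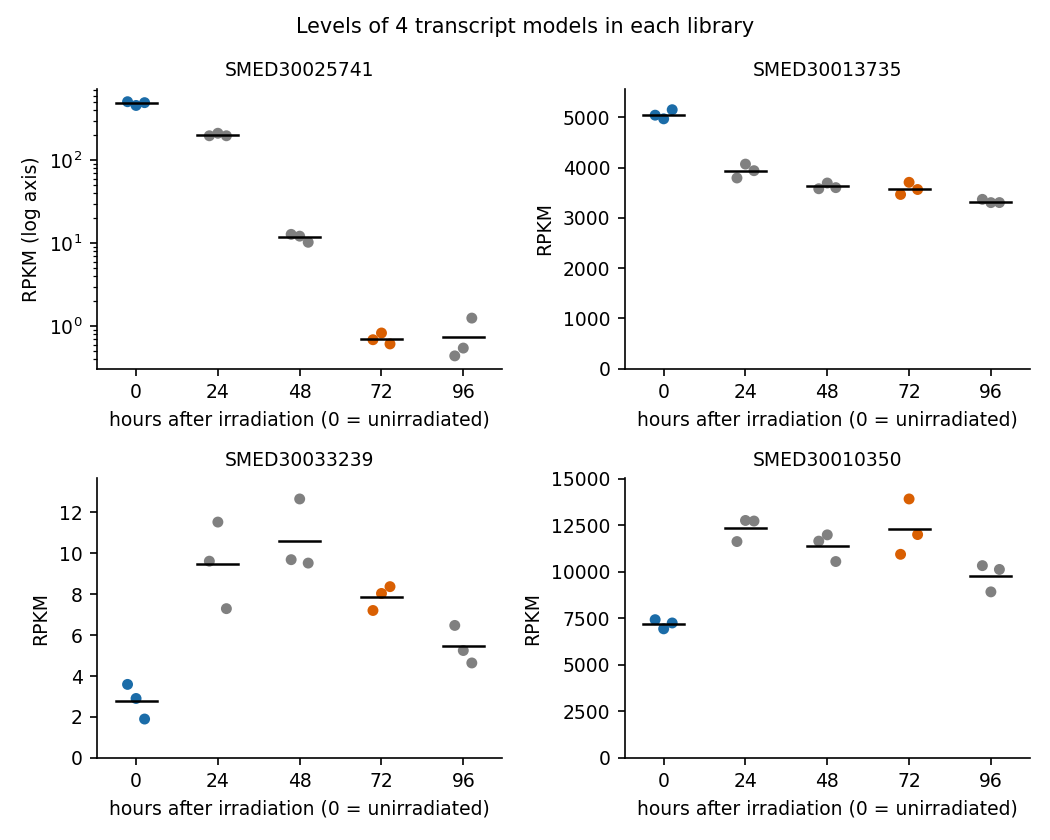
Levels of the 4 individually described transcript models in each of the 15 libraries, in RPKM against hours after irradiation (0 is unirradiated), with points for libraries and black lines for group means; 72 h is orange, 0 h blue and the other times grey. SMED30025741 (log axis) is at 0.710 RPKM at 72 h and 489 RPKM at 0 h, SMED30013735 declines by a smaller factor, and both rising models are above their 0 h values at each irradiated time.

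Modest changes moved most of the reads. The 4530 lower models together held 17.4% ± 0.171 of the 72 h reads and 25.1% ± 0.0805 of the 0 h reads (SD, n = 3 each), and the 4643 higher models 48.1% ± 0.796 at 72 h and 39.6% ± 0.117 at 0 h. These sets were chosen by their direction, so the shares describe the size of the shift and do not test it. The share of the lower models fell by 7.67 percentage points, of which changes under 2-fold made up 81.8%, and such changes made up 99.98% of the 8.52 points gained. Shares within a library have a fixed total, so the loss and the gain are not independent of each other. The shift was also spread over many models, since 190 of the lower models made up 50% of the loss and 160 of the higher models 50% of the gain, and the top 10 contributed 11.9% and 15.4%. The 627 models with 2-fold falls held 0.587% ± 0.0102 of reads at 72 h and 1.98% ± 0.0381 at 0 h. The 15 models with 2-fold rises held 0.00283% ± 0.000571 at 72 h and 0.00116% ± 0.000167 at 0 h.

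The 2-fold rises were found among short, scarce models. Of the 15, 10 averaged under 1 RPKM at 0 h. All 15 together had a median length of 364 bases, with medians of 45 reads summed over the 3 libraries at 72 h and 8 reads at 0 h. Their median level was 1.86 RPKM at 72 h and 0.679 RPKM at 0 h. The 261 models that rose 1.5 to 2-fold had a median length of 591 bases, against 1182.5 bases for all members, and medians of 6.28 RPKM at 72 h and 3.54 RPKM at 0 h. The number of 2-fold rises was unstable. Leaving out 0 h replicate 1 gave 27 such models, 0 h replicate 2 gave 23, 0 h replicate 3 gave 38 and 72 h replicate 3 gave 24. A pseudocount of 0.1 RPKM gave 55, 1 RPKM gave 1, limma-voom 36 and quantile normalization 25.

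Calls at 72 h were counted in classes of level. Among the 1010 models that averaged 100 RPKM or more over the 15 libraries, 58.9% were higher and 26.1% lower at 72 h, with a median change of 0.17. In the class of 20 to 100 RPKM (3921 models) these shares were 48.3% and 23.0%, and of the 6871 models of 5 to 20 RPKM, 1638 were higher and 1921 lower. Of the 4044 models under 2 RPKM, 3.71% were higher and 15.1% lower, with a median of -0.05. The membership rule fixed part of this lean, since 294 of the 609 lower calls in that class were of models admitted through the 0 h values alone, and 39 of the 150 higher calls of models admitted through the 72 h values alone. Likewise 214 of its 255 falls of at least 2-fold were admitted through 0 h alone, so the frequency of such falls is not compared between levels. The level is also a mean over 12 irradiated and 3 unirradiated libraries, and a fall by itself lowers it. The power of the test also moved with level, since the median SE of the change was 0.20 in the lowest class and 0.04 in the highest, and its part in these shares was not tested. With quantile normalization the median changes were 0.05 in the lowest class and 0.13 in the highest, and in the class of 2 to 5 RPKM the higher calls outnumbered the lower (19.2% and 15.5%, in place of 8.72% and 19.9%), as they also did at 5 to 20 RPKM (35.2% and 23.3%).

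**Figure D3:**
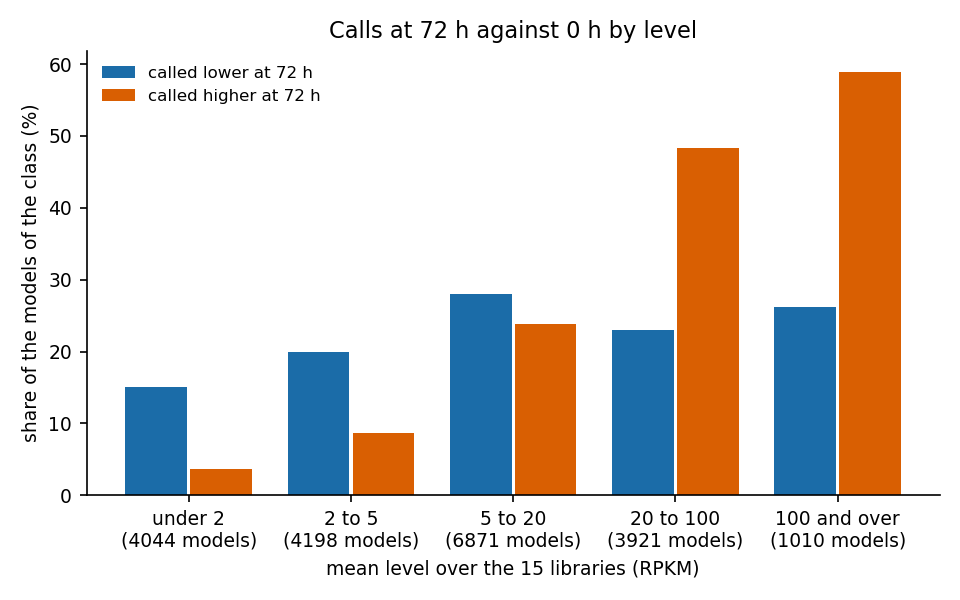
Bars give the share of the models in each level class that were called lower (blue) or higher (orange) at 72 h than at 0 h, with classes of mean RPKM over the 15 libraries on the horizontal axis and the number of models below each. Higher calls make up 3.71% of the class under 2 RPKM and 58.9% of the class at 100 RPKM and over.

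Among models of 300 to 1000 RPKM, the changes at 72 h were unevenly spread. Of 278 models averaging 300 to 1000 RPKM, 170 lay above 0 on the log2 scale and 75 lay between -1 and -0.5, while 13 lay in the interval from -0.5 to -0.2 that separates them. The 75 models changed by similar factors, with a median log2 change of -0.69 and an SD of 0.08 across models, a spread that the band limits. Each was called lower with no overlap between its 72 h and 0 h values, against 21.5% and 24% of all tested models. Choosing the models by this change favoured both. Their median level was 456 RPKM at 72 h and 769 RPKM at 0 h. They were short, with a median length of 620 bases (quartiles 524 and 757), against 889 bases for the other models of the same level class. Together they held 2.39% to 2.48% of the reads of the 72 h libraries and 3.99% to 4.01% of those of the 0 h libraries, so that their mean share fell by 1.57 points, 20.5% of the loss of all lower models. In the neighbouring level classes 50 of 659 models (100 to 300 RPKM) and 2 of 73 (1000 RPKM and over) changed by -1 to -0.5. The level range and the band were chosen after the values had been seen, so these numbers carry no test. Between 24 and 96 h, times that entered the choice only through the mean level, 74 of the 75 models lay lower at 96 h, with a median log2 change of -0.28, against a median of -0.02 for the other models of the class. The models are read from the same libraries, so 74 is not a count of replicates, and the other models were not counted in this way. The median change of the 75 models at 72 h was -0.72 after scaling by recovered read totals and -0.60 after quantile normalization.

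**Figure D4:**
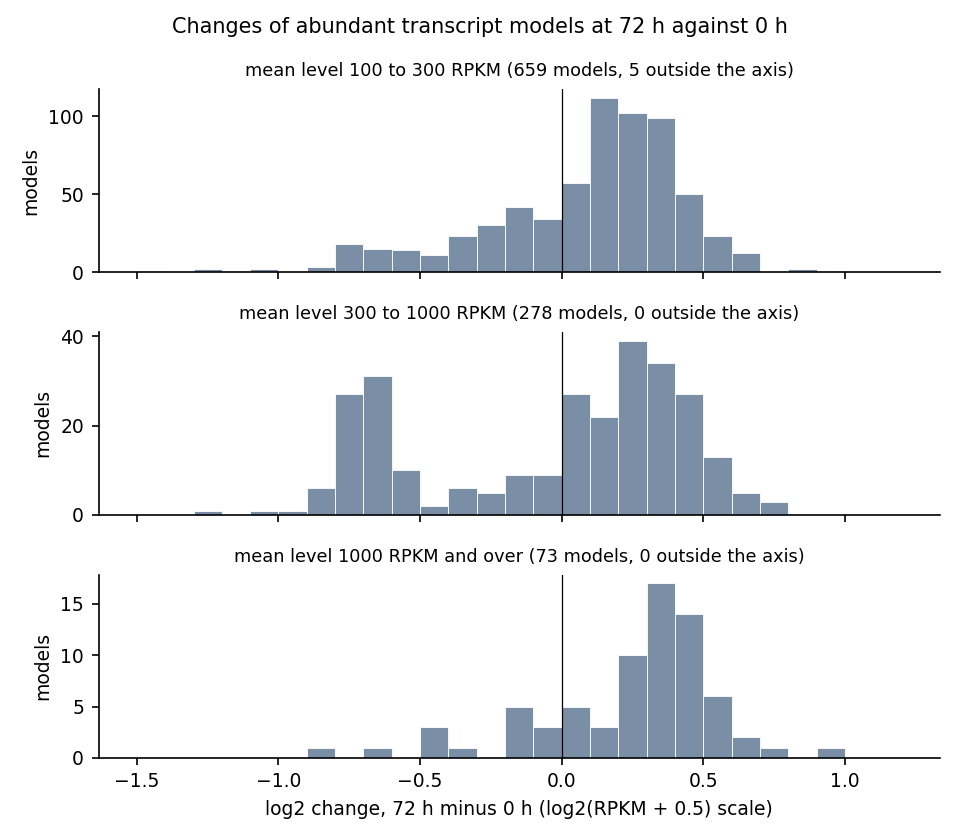
Histograms count transcript models by log2 change (72 h minus 0 h, in steps of 0.1) in 3 classes of mean level over the 15 libraries. The class of 300 to 1000 RPKM has a separate peak of 75 models between -1 and -0.5 beside the main peak above 0, while 50 models of the class of 100 to 300 RPKM and 2 of that at 1000 RPKM and over lie in this interval.

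Most of the read share lost by the strongly falling models was gone before 72 h. The 66 models that were 8-fold or more lower at 72 h held 0.428% of the reads of unirradiated worms, then 0.108% after 24 h, 0.0146% after 48 h, 0.00888% after 72 h and 0.00855% after 96 h. Of the 0 h share, 25.2%, 3.40%, 2.08% and 2.00% were left after 24, 48, 72 and 96 h. These are sums, to which abundant models contribute most. The median log2 change of the 66 models against 0 h was -3.17, -3.70, -3.71 and -3.77 at these times, and -0.38 at 96 h against 24 h, with 35 of the 66 not called in that contrast. At 72 h, 53 of the 66 averaged under 1 RPKM, with a median of 13.5 reads summed over the 72 h libraries. With 0.5 RPKM added, the scale leaves such models little room for further falls. The class of 4 to 8-fold falls stood at 19.7%, 15.6%, 13.8% and 14.1% of its 0 h share at the same times. For the class of 2 to 4-fold falls the values were 53.8%, 44.1%, 39.0% and 38.9%. Every one of these percentages uses the same 0 h libraries, and those at 72 h also chose the models.

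The direction and size of the change at 72 h, which set these classes, do not use the levels at 24, 48 and 96 h. Those libraries did enter the filter and the variance behind each call, and the contrasts among these times use that variance again. A fit to the 6 libraries alone called 627 falls of at least 2-fold, 626 of them the same models, but 3799 higher models in place of 4643. Between 24 and 48 h, 115 of the 627 models with 2-fold falls at 72 h were lower at 48 h (18.3%) and 10 were higher (1.59%), whereas 6.28% of all tested models were lower and 6.8% higher (limma, adjusted p below 0.05). Between 24 and 96 h, 197 of the 627 were lower at 96 h (31.4%) and 18 higher (2.87%), against 16.3% and 15.1% of all tested models. The remaining 412 were not called in this second contrast. Median log2 changes over the 627 were -0.14 at 48 h and -0.18 at 96 h, each against 24 h. Of the 66 models with 8-fold falls at 72 h, 18 were at least 2-fold lower after 48 h and 19 after 96 h, each against 24 h (0.118% and 0.754% of all tested models). Models that were higher at 72 h by less than 1.5-fold (4367) showed calls in both directions between 24 and 96 h, with 1091 higher and 829 lower at 96 h.

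**Figure D5:**
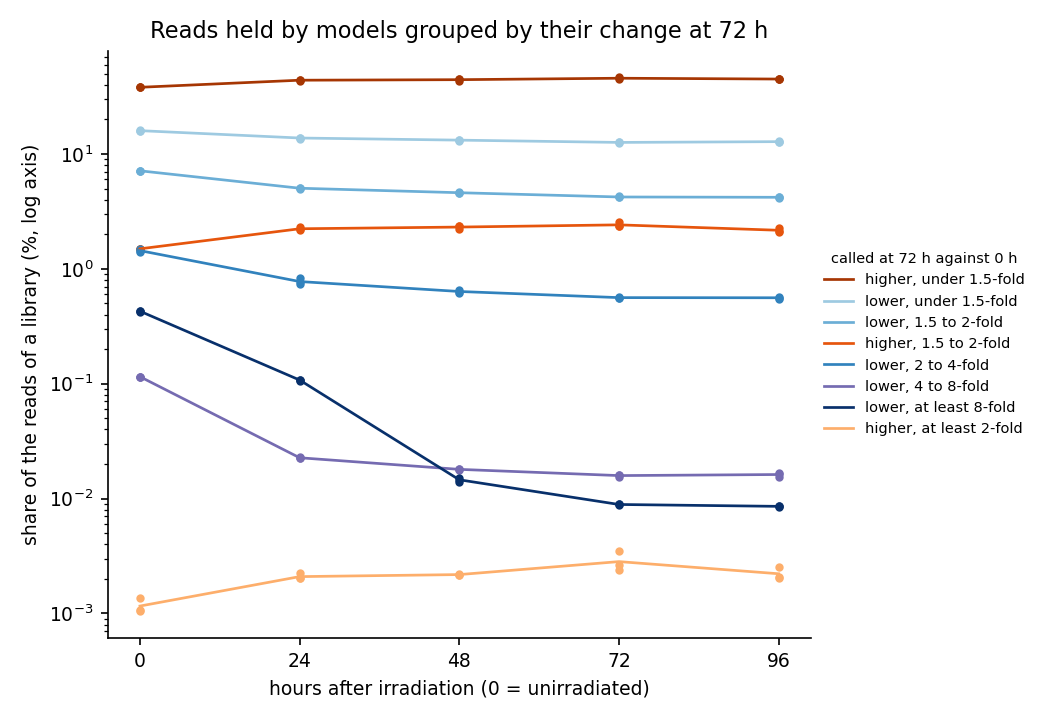
Share of the reads of each library held by the models of 8 classes, set by their called change at 72 h against 0 h, on a log axis over hours after irradiation (0 is unirradiated). Points are libraries and lines join group means; the class of falls of at least 8-fold is at 0.428% of reads in unirradiated worms, 0.108% after 24 h and 0.00888% after 72 h, and the class of rises of at least 2-fold stays below 0.01% throughout.

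Few members were called at 72 h against the mean of the times on either side of it. A steady change through 72 h cancels in such a contrast. In a contrast of 72 h with the mean of 48 h and 96 h, which was added after seeing the data, 75 of the 20044 members were called, 39 higher and 36 lower at 72 h (0.184% and 0.17% of all tested models, limma). In this contrast 5 models were lower by 2-fold or more (0.0236% of all tested models), and these 5 belonged to the 66 with 8-fold falls. Against 48 h alone, 31 of the 627 models with 2-fold falls were lower at 72 h and 1 was higher (1.4% and 0.41% of all tested models). At 96 h against 72 h, 18 were lower and 7 higher (3.6% and 1.34% of all tested models). All of these contrasts use the 72 h libraries by which the 627, and the 66 among them, were chosen.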

How the data were processed

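PolyA RNA of whole worms was sequenced from TruSeq libraries, per the labels' protocols. The authors deposited RPKM values for 26671 models in 15 libraries, 5 groups of 3. Bowtie, edgeR and CASAVA 1.8.2 are named, with no roles, in the submitters' processing notes. Not given in the sources used here are the transcript set, strand use and the handling of reads with several matches, so near-identical, overlapping or antisense models may share reads.

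From the RPKM steps, model lengths, library divisors and whole reads were worked out for 100% of models within 0.001 reads, using 1136 models under 0.5 RPKM. Relative to each library's recovered reads, its divisor was 0.974 to 0.996 at 72 h and 0.999 to 1.02 at 0 h. Scaling by plain read totals instead shifts the median log2 change by -0.03.

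Values were tested as log2(RPKM + 0.5) with limma 3.58.1 in R 4.3.3, with trended moderated variances, in all 15 libraries and on the 21231 models that reached 1 RPKM in at least 3 of them. Contrasts were two-sided, and a model was called at a Benjamini-Hochberg adjusted p below 0.05. This scale understates changes of scarce models. The limma and recovery steps were tested on simulated data. Simulated reads for the limma step had the same excess spread (dispersion 0.001) for every model, which need not match these libraries. With no gene names, 2 falling and 2 rising models are named, the one with the largest log2 change and, of the rest, the one with the largest difference in RPKM. They come from called members whose 72 h and 0 h values do not overlap and whose higher mean reaches 5 RPKM. Lists of marker genes could not be applied without names. Members, classes and tests were chosen with earlier results of these data known. Python 3.11.15, pandas 2.3.3, numpy 2.4.6, scipy 1.17.1 and matplotlib 3.10.9 were used. Alternatives were other pseudocounts, no filter, quantile normalization, a fit to the 6 libraries, limma-voom on recovered reads, a replicate block and leaving out each library. Thinning to the shallowest library and scaling by recovered totals were added after seeing the data.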

Additional observations from a re-analysis of the deposited data

Results flagged for a closer look

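For 2 of the 4 named models the level at 72 h differed from that at a neighbouring time in a direct limma contrast. SMED30025741 was lower at 72 h than at 48 h, with a log2 change of -3.34 (adjusted p = 6.58e-09) and 3 of 3 libraries below all those at 48 h. SMED30010350 was lower at 96 h than at 72 h, with a log2 change of -0.32 (adjusted p = 0.0433) and 3 of 3 libraries at 96 h below all those at 72 h. Both contrasts use the 72 h libraries by which these models were chosen. The choice of extreme 72 h values favoured a difference in the direction seen.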

How the results depend on the processing

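The counts of 4530 lower, 4643 higher and 627 at least 2-fold lower models stayed within 1.5 times under every alternative run, and the 4 named models kept their direction and call in 60 of 60 refits. The count of 15 models at least 2-fold higher was 55 with a pseudocount of 0.1 RPKM, 1 with 1 RPKM, 36 with limma-voom and 25 with quantile normalization. The count of 66 models at least 8-fold lower was 156, 38 and 172 with the first 3 of these. Among the 2-fold falls, the 18 models higher at 96 h than at 24 h became 31 with limma-voom. Leaving out single libraries gave 4188 to 4368 lower, 4088 to 4356 higher, 631 to 656 at least 2-fold lower, 17 to 38 at least 2-fold higher and 65 to 66 at least 8-fold lower models. As shares of summed RPKM, the 2-fold falls held 0.525% and the 2-fold rises 0.00635% at 72 h, in place of 0.587% and 0.00283% of reads. With the replicate block 4531 models were lower, 4610 higher and 627 at least 2-fold lower. Same-numbered libraries correlated at 0.00264 to 0.0161 in their deviations from the group means, and 3 of 6 libraries correlated best with their own number, so the numbers were not taken to pair them. Higher models were 50.6% of the calls, 45.0% after scaling by recovered read totals and 59.4% after quantile normalization, whose median changes were shifted by -0.03 and 0.06. Thinned to 9749391 reads, the libraries gave 3759 lower and 3542 higher models, 689 at least 2-fold lower. The causes of these differences were not tested. The 0 h depth limits scarce models, with a median of 9 reads in the lowest 0 h library of models under 2 RPKM.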

Other observations

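Calls differed with model length. With the members split by length into 4 classes of nearly equal number, 30.6% of the shortest (60 to 647 bases) were called at 72 h against 0 h, and 53.1% of the longest (1925 to 23779 bases). The median of the lowest read count among the 3 libraries of a group moved with length, at 20 reads at 72 h and 13 reads at 0 h in the shortest class and 496 reads at 72 h and 320 reads at 0 h in the longest, and its part in these shares was not tested. Of the 15 models with 2-fold rises, 13 were in the shortest class, which held 137 of the 627 with 2-fold falls.

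The 6627 models outside the rule held 0.289% of the reads at 72 h and 0.327% at 0 h. Of these, 1187 were tested and 95 called, against 43.7% of all tested models (limma, adjusted p below 0.05). Among the 95, 2 were at least 2-fold lower and 6 at least 2-fold higher at 72 h, against 2.96% and 0.0989% of all tested models. Near the limit of the rule, 480 members had their third-highest of the 6 values between 1 and 1.1 RPKM, and 574 models fell short with a value of 0.9 to 1 RPKM.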
